A study of Arabidopsis thaliana with 2 samples.

Results

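The short arm of Arabidopsis thaliana chromosome 4 was described here through the sites at which the transcription factor LEAFY (LFY) was listed as bound to naked DNA. Members were all intervals on chromosome 4 with a midpoint below 3.9 Mb, the part of the chromosome that carries a heterochromatic knob. There were 582 of the 22514 intervals listed for native DNA and 165 of the 4882 listed for amplified DNA. The long arm, taken as chromosome 4 above 6.5 Mb, served for comparison and held 2674 and 511 intervals. No measured value other than position was used to choose the members.

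LFY is a plant-specific transcription factor that specifies floral meristem identity and activates the genes that pattern the flower. It binds DNA as a dimer through a helix-turn-helix domain. Plant heterochromatin is rich in transposable elements and in cytosine methylation, poor in protein-coding genes, and concentrated around the centromeres. The knob on the short arm of chromosome 4 in the Columbia accession is a block of such heterochromatin that lies away from the centromere, with gene-bearing euchromatin on both sides of it. Native plant DNA keeps its methylation and DNA copied by PCR loses it, so the assay on both kinds of DNA bears on regions of this type.

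DAP-seq (DNA affinity purification sequencing) recovers the fragments of genomic DNA that a tagged protein made outside the plant pulls down. Per the labels, LFY with a 5XMyC tag was made by coupled transcription and translation in vitro. The DAP library used sheared DNA from seedlings 2 weeks old whose label names 35S::LFY, a LFY transgene under the viral 35S promoter. The ampDAP library used PCR-amplified DNA from seedlings 2 weeks old, and its label names no transgene. Both groups of seedlings grew under long days, on Murashige and Skoog medium at 0.5 strength. The kind of DNA and the labelled plant source therefore cannot be told apart. Each kind of DNA had 1 library, so no test between them was possible and no replicate error could be given. All intervals were 400 bp wide and carried no strength, and read depth is unknown. The intervals in brackets below are 95% intervals for counting error only and treat sites as independent. On the short arm 33 pairs of DAP intervals overlapped, and overlapping intervals were counted as separate sites throughout, also at single genes.

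The first comparison set the short arm against the long arm of the same chromosome. Sites on amplified DNA were as dense on the short arm as on the long arm, at 42.3 ampDAP intervals per Mb on both. Sites on native DNA were sparser on the short arm, at 149 DAP intervals per Mb against 221 on the long arm, or 0.674 times the density. The ratio of ampDAP to DAP intervals was accordingly 0.284 on the short arm (0.237 to 0.338) and 0.191 on the long arm (0.174 to 0.210). The ratio of these ratios was 1.48 (1.22 to 1.81).

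An ampDAP interval was called partnered when a DAP midpoint lay within 200 bp of its own midpoint, and unpartnered otherwise. On the short arm 21 of the 165 ampDAP intervals were unpartnered (12.7%, 8.05 to 18.8%), against 11 of 511 on the long arm (2.15%, 1.08 to 3.82%). The share on the short arm was 5.91 times that on the long arm (2.91 to 12.0). The multiple was 1.97 when partners had to lie within 20 bp (1.40 to 2.78), and 3.65 when the short arm was ended at 3.0 Mb (1.62 to 8.24). Without the 1.1 Mb next to the centromere side of the short arm, described below, the share was 5.88% and the multiple was 2.73 (1.12 to 6.66). In the other direction, 24.9% of the short-arm DAP intervals had an ampDAP partner (21.4 to 28.6%), against 18.7% on the long arm (17.2 to 20.2%).

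Partnered sites were placed at nearly the same base in both lists. The 144 partnered ampDAP midpoints of the short arm had a median distance of 9 bp to their partners, and the 500 of the long arm one of 7 bp. The partnered interval farthest from its partner lay 103 bp away, and the nearest unpartnered one 258 bp away, so no short-arm interval was close to the limit of 200 bp. The last DAP midpoint inside the boundary at 3.9 Mb was at base 3899779 and the next one beyond it was at base 4071360.

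Along the arm, interval counts followed the density of protein-coding genes. The arm was divided into 39 windows of 100 kb, and a window with fewer than 15 protein-coding gene starts in the RefSeq gene table was called gene-poor. The 18 gene-poor windows formed 2 runs and the 21 gene-rich windows formed another 2. The long arm had 0 gene-poor windows among 120. The window on the border of a run that came closest to the limit on the poor side had 12 gene starts, and its neighbour on the rich side had 16. Over the 39 windows, the Spearman correlation of gene starts with counts was 0.81 for DAP and 0.58 for ampDAP. Over the 120 windows of the long arm, which had 15 to 37 gene starts each, it was 0.32 and 0.27. Windows of 1 chromosome share its base composition and gene content, and these values are a description without a test.

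The distal gene-rich block, bases 1 to 1600000, comprised 16 windows with 19 to 31 protein-coding gene starts each. Its windows held 17 to 27 DAP intervals, with a median of 24, and 2 to 9 ampDAP intervals, with a median of 6. The interstitial gene-poor block, bases 1600001 to 2300000, comprised 7 windows with 54 protein-coding gene starts and 120 pseudogene starts in all. It lies between gene-rich blocks, as a knob does, but the borders of the knob are not given in the sources used here, so the block is named by its gene density. The middle gene-rich block, bases 2300001 to 2800000, comprised 5 windows with 102 protein-coding gene starts. The proximal gene-poor block, bases 2800001 to 3900000, comprised 11 windows with 25 protein-coding and 205 pseudogene starts, and adjoins the centromere side.

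**Figure D1:**
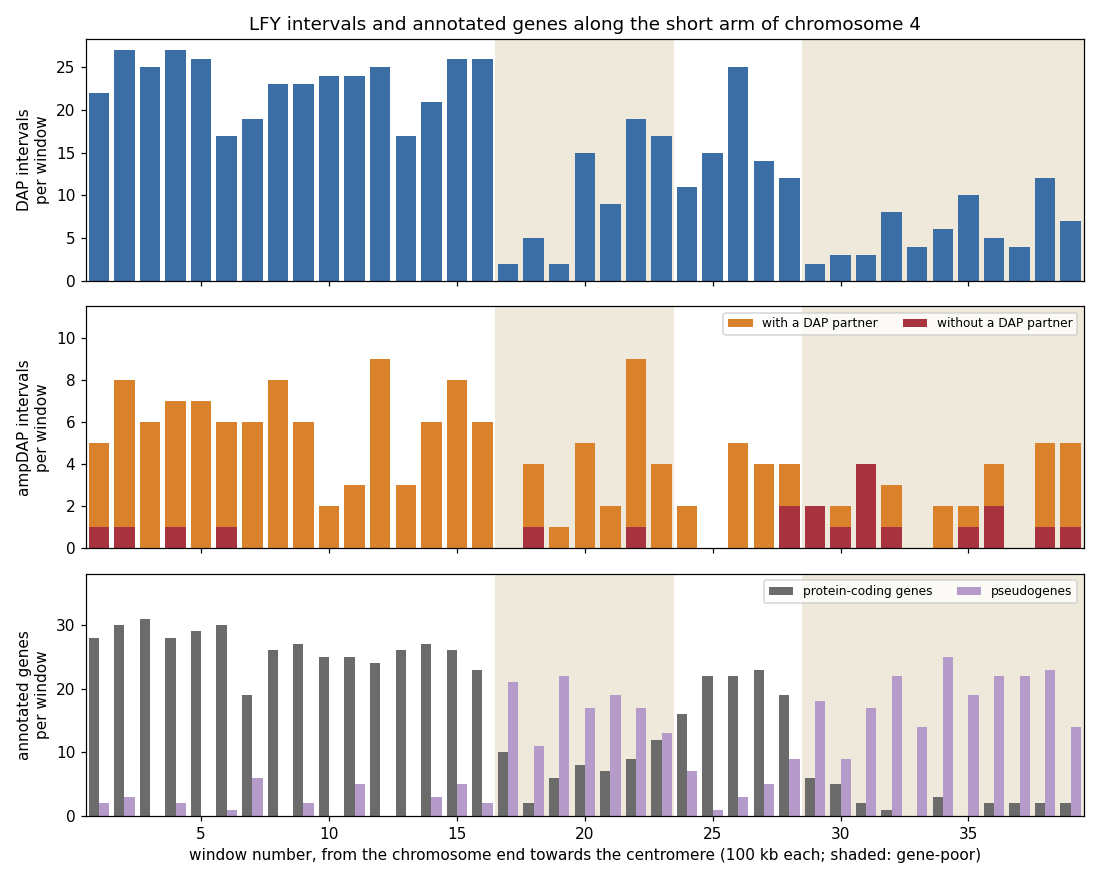
Counts in 39 windows of 100 kb along the short arm, numbered from the chromosome end: DAP intervals (top), ampDAP intervals split by whether a DAP midpoint lies within 200 bp (middle), and protein-coding gene and pseudogene starts (bottom). Shaded windows are gene-poor; DAP counts fall to between 2 and 19 in the first shaded run and between 2 and 12 in the second, and 13 of the 21 unpartnered ampDAP intervals lie in the second.

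Both gene-poor blocks had fewer DAP sites per Mb than either gene-rich block, and the proximal one held 13 of the 21 unpartnered ampDAP sites of the arm. DAP density was 232.5 intervals per Mb in the distal block, 98.6 in the interstitial, 154 in the middle and 58.2 in the proximal block. The ampDAP density was 60.0 intervals per Mb in the distal, 35.7 in the interstitial, 30.0 in the middle and 26.4 in the proximal block. Relative to the distal block, DAP density was thus 0.424 times in the interstitial and 0.250 times in the proximal block, while ampDAP density was 0.595 and 0.439 times.

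The ratio of ampDAP to DAP intervals was 0.258 in the distal block (0.204 to 0.324), 0.362 in the interstitial (0.220 to 0.580), 0.195 in the middle (0.104 to 0.342) and 0.453 in the proximal block (0.282 to 0.713). The proximal ratio was 1.76 times the distal one (1.07 to 2.87). The interstitial ratio was 1.40 times the distal one, with an interval that included 1 (0.843 to 2.34), so these counts do not separate them.

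Unpartnered ampDAP intervals numbered 4 of 96 in the distal block (4.17%, 1.15 to 10.3%) and 2 of 25 in the interstitial block (8%, 0.984 to 26.0%). They numbered 2 of 15 in the middle block (13.3%, 1.66 to 40.5%) and 13 of 29 in the proximal block (44.8%, 26.4 to 64.3%). The proximal share was 10.8 times the distal share (3.80 to 30.5) and 5.60 times the interstitial share (1.40 to 22.5). The share of DAP intervals with an ampDAP partner was 33.3% in the interstitial block (22.4 to 45.7%) and 25% in the proximal block (15.0 to 37.4%), and both intervals included the 24.7% of the distal block.

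**Figure D2:**
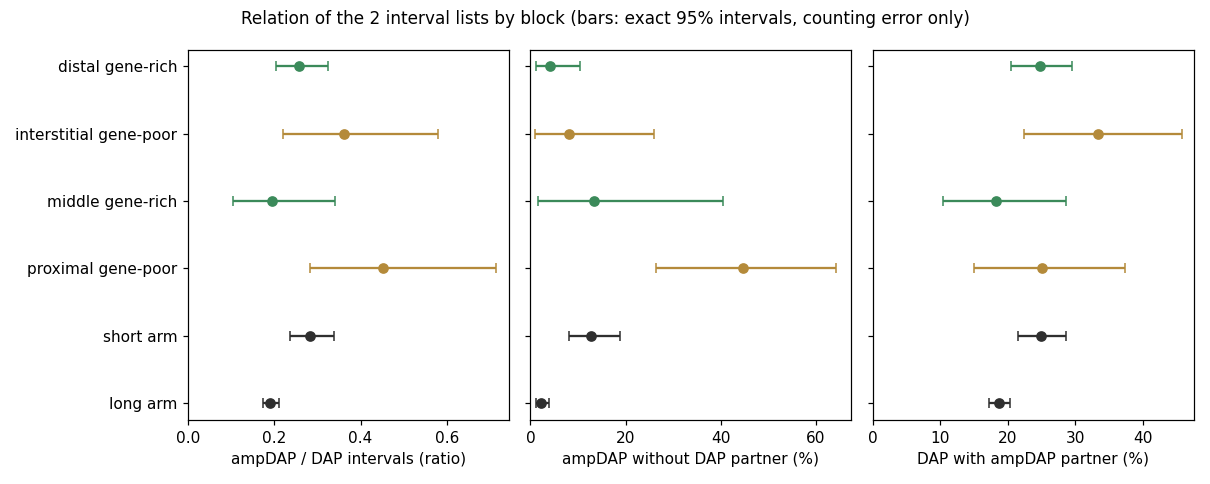
Ratio of ampDAP to DAP intervals (left), percent of ampDAP intervals without a DAP midpoint within 200 bp (centre) and percent of DAP intervals with an ampDAP partner (right), for the 4 blocks of the short arm, the whole short arm and the long arm. Points are the values in these 2 libraries and bars are 95% intervals for counting error; the unpartnered share of the proximal gene-poor block, 44.8%, stands above those of the distal and long-arm regions.

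Gene-poor windows of the short arm were set beside gene-poor windows of chromosomes 1, 2, 3 and 5, chosen by the same rule. In the 18 short-arm windows the ratio of ampDAP to DAP intervals was 0.406 (0.290 to 0.561) and 27.8% of ampDAP intervals were unpartnered (16.5 to 41.6%). The 173 windows of the other chromosomes had a ratio of 0.323 (0.290 to 0.360), with 20.6% of ampDAP intervals unpartnered (16.9 to 24.7%), and the intervals overlapped for both measures. The interval of the proximal block alone (26.4 to 64.3%) lay above the pooled interval of the other chromosomes. It overlapped those of chromosomes 1, 2 and 3 taken singly, which reached 34.2%, 28.3% and 31.0%. The interval of the interstitial block overlapped the pooled one.

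In gene-rich windows the short arm had a ratio of 0.247 (0.199 to 0.305), against 0.191 on the long arm and 0.210 on the other chromosomes (0.202 to 0.217). It was 1.29 times the long-arm ratio (1.03 to 1.63), while its interval included the ratio of the other chromosomes. The unpartnered share in gene-rich windows was 5.41% on the short arm (2.01 to 11.4%), 4.15% on the other chromosomes (3.53 to 4.85%) and 2.17% on the long arm (1.09 to 3.85%). The short-arm share was 2.49 times the long-arm share, with an interval that included 1 (0.941 to 6.59). Single other chromosomes ranged from 3.17 to 4.99%, above the value of the long arm of chromosome 4, although its interval overlapped theirs. Multiples over the long arm are therefore larger than multiples over the other chromosomes would be. The gene-rich windows of the short arm held 214 DAP and 52.9 ampDAP intervals per Mb, and those of the long arm 221 and 42.25.

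The interstitial gene-poor block was uneven. Its first 3 windows, next to the distal block, held 2, 5 and 2 DAP intervals and 0, 4 and 1 ampDAP intervals. Its last 4 windows held 15, 9, 19 and 17 DAP intervals and 5, 2, 9 and 4 ampDAP intervals, while their 7 to 12 gene starts per window overlapped the 2 to 10 of the first 3. The longest stretch of the arm without a DAP interval lay in this block, at chr4:1657811-1757137, and spanned 99.3 kb. An unpartnered ampDAP interval lay inside that stretch, at chr4:1745785-1746184. The window from 2.1 to 2.2 Mb, with 9 gene starts, held 9 ampDAP intervals, as many as the richest window of the distal block.

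The proximal gene-poor block had the lowest density of the 4 blocks in both lists, as given above. The median spacing between neighbouring DAP midpoints was 11025 bp there and between 2763 and 3831 bp in the other blocks. For ampDAP the median spacing was 15329 bp, against 12023 bp in the distal, 13702 bp in the interstitial and 20715.5 bp in the middle block, which had only 15 ampDAP intervals. In 2 of its windows, numbered 29 and 31, every ampDAP interval was unpartnered, 2 of 2 and 4 of 4, beside 2 and 3 DAP intervals. Window 31 was the only window of the arm with more ampDAP than DAP intervals, and window 29 had as many of one as of the other. The longest stretch of the arm without an ampDAP interval, chr4:3151267-3370555, spanned 219 kb of this block, and the stretch chr4:3189037-3286108 inside it held no interval of either list.

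Unpartnered sites varied in their distance to the nearest DAP site. On the short arm the median distance from an unpartnered ampDAP midpoint to the nearest DAP midpoint was 4906 bp. Of the 21 sites, 4 had a DAP midpoint within 1 kb, 7 within 2 kb and 11 within 5 kb. On the long arm the median was 1012 bp, and of the 11 sites 5 had one within 1 kb, 8 within 2 kb and all 11 within 5 kb. The DAP list itself was sparser on the short arm, with a median spacing of 3306 bp against 2950 bp. In the proximal block, which held 13 of the 21 sites, the median DAP spacing was 11025 bp. The part of DAP spacing in these distances was not tested. The most isolated site of the short arm, chr4:2856811-2857210 in the proximal block, had no DAP midpoint within 36.1 kb.

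Of the 13 unpartnered sites of the proximal block, 11 had no protein-coding gene within 3 kb (84.6%). This is close to the share of the block as a whole, since 85.9% of its bases, 48 of its 64 DAP midpoints (75%) and 26 of its 29 ampDAP midpoints (89.7%) had none. The other unpartnered sites of the block with a gene that close were a pair of overlapping intervals with midpoints 393 bp apart, chr4:3068196-3068595 and chr4:3068589-3068988. The first had its midpoint inside AT4G06479 and the second 19 bp beyond it, and the nearest DAP midpoint was 4.66 kb from the first. A further 2 had their midpoints inside annotated pseudogenes, chr4:3527656-3528055 in AT4G06571 and chr4:3584771-3585170 in AT4G06585. At chr4:3463565-3463964 the pseudogene AT4G06554 was 32 bp away and the nearest protein-coding gene 59.7 kb away. The interval chr4:3775728-3776127 lay 9.26 kb from YY1, which encodes a zinc-finger transcription factor, and had a DAP midpoint 1.03 kb away. A second interval, chr4:3812655-3813054, also had YY1 as its nearest protein-coding gene, at 46.2 kb.

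The other 6 unpartnered sites of the proximal block were chr4:2895609-2896008 and chr4:2913613-2914012, on either side of AT4G05590, chr4:3052970-3053369 and chr4:3078402-3078801, on either side of AT4G06479, chr4:3132265-3132664 beyond AT4G06490, and the isolated site above. Their nearest protein-coding genes were 5.18 to 15.1 kb away. Each lay 395 to 1666 bp from an annotated pseudogene, in a block where 79.2% of bases and 61 of 64 DAP midpoints lay within 2 kb of one.

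In the interstitial block both unpartnered sites lay more than 1 kb from protein-coding genes, as did 19 of its 25 ampDAP and 40 of its 69 DAP midpoints. The interval chr4:1745785-1746184 had its midpoint inside the pseudogene AT4G03800, and its nearest protein-coding gene, AT4G03820, was 25.8 kb away. The interval chr4:2150765-2151164 lay 93 bp from the pseudogene AT4G04392 and 13.04 kb from AT4G04402. Its nearest DAP midpoint was 819 bp away.

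In the gene-rich blocks all 6 unpartnered sites lay within 2 kb of a protein-coding gene, and 0 had a midpoint inside one. Of the bases, 85.9% in the distal and 70.1% in the middle block lay in or within 1 kb of such a gene. Of all ampDAP midpoints, 70 of 96 in the distal and 8 of 15 in the middle block were inside one. In the distal block, chr4:50929-51328 lay 38 bp from EDA34, named for a mutant with arrested embryo sac development. The interval chr4:310809-311208 lay 491 bp from QUA3, of the QUASIMODO family linked to cell wall pectin. The interval chr4:588015-588414 lay 88 bp from UMAMIT29, which encodes an amino acid transporter, and had no DAP midpoint within 9.54 kb. The fourth, chr4:191350-191749, lay 1.98 kb from TRM15, named for a motif that recruits the microtubule-organising protein TON1, and overlapped a DAP interval whose midpoint was 258 bp away. In the middle block, chr4:2725301-2725700 lay 190 bp from AT4G05340 and chr4:2762491-2762890 lay 245 bp from AT4G05460.

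**Figure D3:**
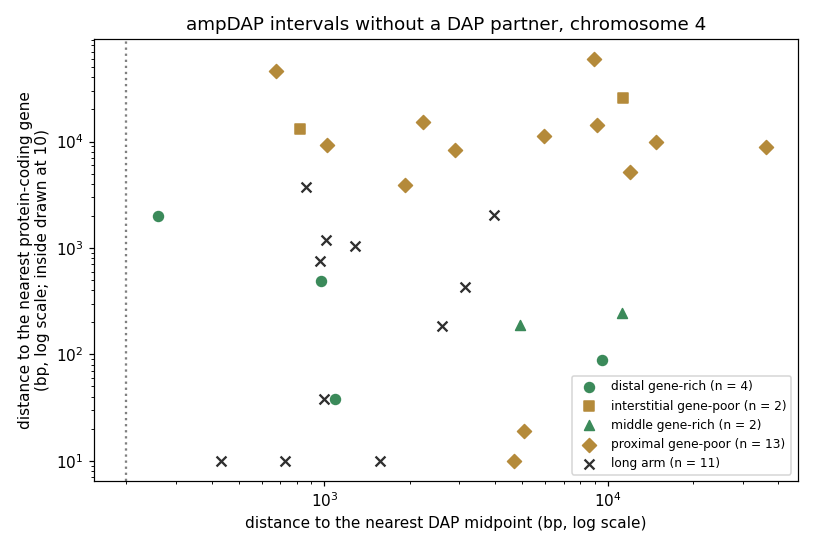
Each point is an unpartnered ampDAP interval of chromosome 4: distance to the nearest DAP midpoint (horizontal, bp, log scale, dotted line at 200) against distance to the nearest protein-coding gene (vertical, bp, log scale, midpoints inside a gene drawn at 10). The points of the gene-poor blocks lie above 3 kb from a protein-coding gene except for the overlapping pair at AT4G06479, and the 11 long-arm points lie within 4 kb of a DAP midpoint.

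The next comparison placed the sites relative to genes. LFY sites on native DNA lay mainly inside protein-coding genes, beyond the share of the sequence that such genes occupy. Protein-coding genes made up 35.8% of the short-arm bases and held 63.6% of its DAP midpoints (59.5 to 67.5%) and 50.9% of its ampDAP midpoints (43.0 to 58.8%). Only 1 of the 21 unpartnered ampDAP midpoints was inside one. Of these 21, 13 lay in the proximal and 2 in the interstitial block, where such genes made up 3.56% and 14.7% of bases. The distal block held 4 and the middle block 2, with 63.8% and 46.6% of bases in such genes. The part of block location in the low share was not tested. On the long arm genes made up 65.4% of the bases and held 81.2% of DAP and 75.3% of ampDAP midpoints. The gene table gives no strand, so distance is to the nearer end of a gene, and promoters could not be told from the 3′ side.

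Away from protein-coding genes, DAP sites were sparser on the short arm as a whole than on the long arm, and ampDAP sites were not. The distal block differed from the other blocks in this. Sequence more than 1 kb from any protein-coding gene held 75.5 DAP intervals per Mb on the short arm and 104 on the long arm. The same sequence held 30.2 ampDAP intervals per Mb on the short arm and 26.6 on the long arm. By block, its DAP density was 164 per Mb in the distal, 75.9 in the interstitial, 73.6 in the middle and 56.0 in the proximal block. Its ampDAP density was 48.7, 36.1, 13.4 and 25.6 per Mb in the same order. Over all such sequence the ratio of ampDAP to DAP intervals was 0.400 on the short arm (0.290 to 0.546). On the long arm it was 0.257 (0.176 to 0.367), and these intervals overlapped. Within protein-coding genes the ratio was 0.227 on the short arm (0.177 to 0.288) and 0.177 on the long arm (0.159 to 0.198), and these also overlapped.

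Pseudogenes and other genes that do not encode proteins were counted only where they lay more than 1 kb from any protein-coding gene. These parts made up 22.3% of the short arm and 2.03% of the long arm. Sequence in or within 1 kb of protein-coding genes, left out of these shares, made up 50.8% and 87.9% of the arms. The counted parts held 79 DAP and 31 ampDAP midpoints of the short arm, and 3 of these ampDAP sites were unpartnered (9.68%, 2.04 to 25.8%). Sequence in no annotated gene and more than 1 kb from protein-coding genes held 66 DAP and 27 ampDAP midpoints, of which 11 were unpartnered (40.7%, 22.4 to 61.2%). In the proximal block 9 of the 12 ampDAP midpoints in such sequence were unpartnered (75%, 42.8 to 94.5%). In the counted parts of its pseudogenes and other non-coding genes 2 of 14 were (14.3%, 1.78 to 42.8%). In the interstitial block 1 of 8 and 1 of 11 were.

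**Figure D4:**
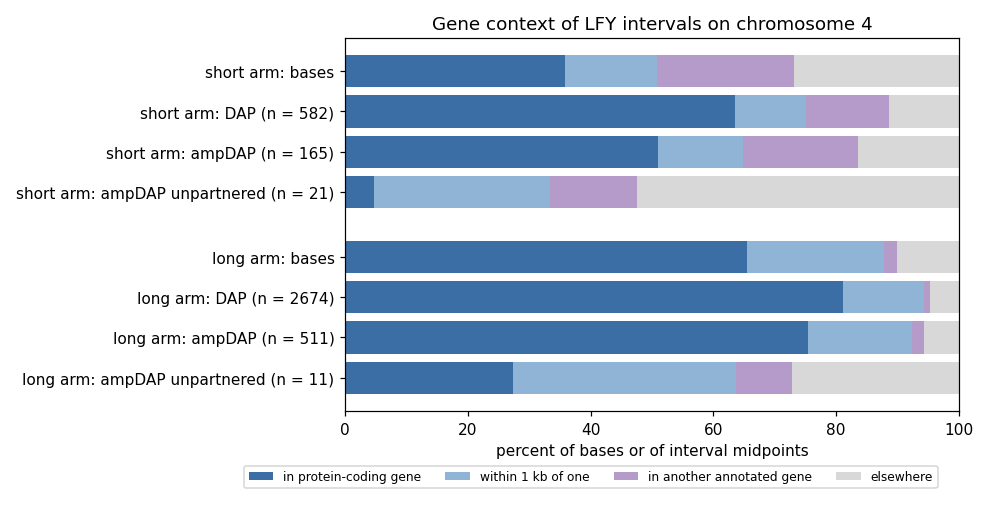
Percent of bases, of DAP midpoints, of ampDAP midpoints and of unpartnered ampDAP midpoints in 4 classes of sequence, for the short and the long arm of chromosome 4. On the short arm protein-coding genes take 35.8% of bases, 63.6% of DAP, 50.9% of ampDAP and 4.76% of unpartnered ampDAP midpoints. Of the 21 unpartnered midpoints, 13 lie in the proximal block, where such genes take 3.56% of bases, and 4 in the distal block, where they take 63.8%.

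A gene was counted as having a site when a midpoint lay inside it or within 1 kb of either end. Over all 27444 protein-coding genes of the 5 chromosomes, 60.0% had a DAP site and 18.5% had an ampDAP site. Of the 605 short-arm genes, 351 had a DAP site (58.0%) and 127 had an ampDAP site (21.0%), close to these background shares. By block, a DAP site was found at 272 of 424 genes in the distal block (64.2%), 20 of 54 in the interstitial (37.0%), 52 of 102 in the middle (51.0%) and 7 of 25 in the proximal block (28.0%). An ampDAP site was found at 102 distal genes (24.1%), 8 interstitial (14.8%), 15 middle (14.7%) and 2 proximal genes (8%). Genes were shorter in the proximal block, with a median length of 1530 bp against 2149.5 bp in the distal block, and the part of gene length in these shares was not tested.

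A list of 22 short-arm genes with roles in flowering, development, hormone action, signalling and transcription was examined. All 22 matched the gene table, 19 lay in the distal and 3 in the middle block. In this list 19 genes had a DAP site (86.4%) and 7 had an ampDAP site (31.8%). The shares over all genes were 60.0% and 18.5%, and those in the distal block 64.2% and 24.1%. The list was picked for known genes, without matching on length, so nothing is read from its shares. The counts by role below cover 3 to 6 genes each and are given only to account for the members.

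Of the 4 flowering genes, 4 had a DAP site and 3 had an ampDAP site. FRI, which in winter-annual accessions delays flowering by raising expression of the repressor FLC, had 1 DAP site inside the gene, chr4:270639-271038, and an ampDAP site 5 bp from it. LD, a homeodomain protein of the autonomous flowering pathway, had 3 DAP sites and 1 ampDAP site within 1 kb. The ampDAP site of LD lay inside the gene at chr4:1124986-1125385, and its nearest DAP midpoint, 103 bp away, was the most distant partner on the arm. SWN, a histone methyltransferase of Polycomb complexes, had 1 DAP and 1 ampDAP site, both inside the gene and 5 bp apart. MED12 (CCT in the gene table), a Mediator kinase-module subunit, had 2 DAP sites inside the gene, and its nearest ampDAP midpoint was 9325 bp away.

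Of the 5 genes of organ and epidermis development, 5 had a DAP site and 1 had an ampDAP site. YAB3, a YABBY transcription factor of the abaxial side of lateral organs, had an interval of each list inside the gene with midpoints 2 bp apart. PDF2, a homeodomain protein of the epidermis, had 4 DAP sites inside the gene, from chr4:2476331-2476730 to chr4:2477981-2478380, and its nearest ampDAP midpoint was 30443 bp away. PDF2 lies in window 25 of the middle block, where 15 DAP intervals and 22 gene starts stood beside 0 ampDAP intervals. LBD30 (JLO in the gene table), a LOB-domain transcription factor, had 3 DAP sites within 1 kb and ANL2, a homeodomain protein of the epidermis, had 2. Neither had an ampDAP site within 3 kb. NGA4, a NGATHA transcription factor of leaf and carpel shape, had 1 DAP site inside the gene and an ampDAP site 2168 bp away.

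Of the 4 hormone genes, 3 had a DAP site and 1 had an ampDAP site. DFL2, a GH3-family protein, had a DAP midpoint 81 bp and an ampDAP midpoint 106 bp beyond the same end. GA1, the enzyme of the first committed step of gibberellin synthesis, had 1 DAP site inside the gene, and its nearest ampDAP midpoint was 9439 bp away. AFB1 (GRH1 in the gene table), an auxin receptor F-box protein, had 1 DAP site, and its nearest ampDAP midpoint was 4522 bp away. ABP1, an auxin-binding protein, had its nearest midpoints just beyond 1 kb, at 1208 bp for DAP and 1213 bp for ampDAP.

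Among the 6 other transcriptional regulators, 5 had a DAP site and 1 had an ampDAP site. ETC3 (CPL3 in the gene table), a single-repeat MYB protein that acts on trichome and root hair patterning, had 3 intervals of each list within 3 kb, which paired within 5 bp. MYC1, WRKY22, MYB55 and MYB74 each had 1 DAP site and no ampDAP midpoint within 4 kb. UNE10, a bHLH protein, had its nearest DAP midpoint at 1818 bp. Of the remaining 3 genes, the kinase MPK4 had 2 DAP sites and 1 ampDAP site, and the polyubiquitin gene UBQ10 had 3 DAP sites and no ampDAP site. XTH9, of a cell wall enzyme family, had no midpoint of either list within 3 kb.

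The 5 windows with the most ampDAP intervals held 8 or 9 each, and 4 of them lay in the distal block. Window 12, from 1.1 to 1.2 Mb, held 25 DAP and 9 ampDAP intervals and had 10 genes within 1 kb of an ampDAP midpoint. They included LD, the chloroplast protein import receptor gene TOC159, the glutathione transferase gene GSTF2, the ubiquitin ligase scaffold gene CUL1 and the bZIP gene BZO2H1. Window 22, in the interstitial block, held 19 DAP and 9 ampDAP intervals, of which 8 were partnered, and only 1 of its genes, EMB2369, named for an embryo-defective mutant, lay within 1 kb of an ampDAP midpoint. Windows 2, 8 and 15 held 8 ampDAP intervals each, and had 6, 9 and 10 such genes. Among these were CYP86A2, a cytochrome P450 of cuticle lipid synthesis, the transcription factor gene WRKY47, the transporter genes ABCB3 and ABCB5, and PETC, the Rieske protein of the photosynthetic electron chain.

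The short-arm genes with the most DAP intervals within 3 kb were AT4G03380, with 8, and AT4G00990, ABCB3, AT4G02660 and GSL1, with 7 each. The number of ampDAP intervals near these genes ranged from 0 to 4. Partners were not counted gene by gene, and 24.9% of all short-arm DAP intervals had one. AT4G03380 had 0 ampDAP intervals within 3 kb, AT4G00990 had 1 and AT4G02660 had 2. GSL1, a callose synthase gene of the middle block, had 3, and ABCB3, an ATP-binding cassette transporter gene, had 4. AT4G02660 is 14828 bp long, so its count covers more sequence than the 4695 bp of ABCB3.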

How the data were processed

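LFY binding was profiled in 2 samples, 1 library of native (DAP) and 1 of amplified (ampDAP) DNA, grouped by the labelled kind of DNA. The deposited files list a chromosome, a start and an end per interval, and hold no other column. Bowtie2, SAMtools, MACS2 and the TAIR10 build are named in the submitters' processing notes, without versions or roles; threshold, control and pooling are not given in the sources used here, and each list may rest on its own depth and cutoff. Coordinates are those of the files, counted from 1. Genes came from the RefSeq table of assembly TAIR10.1, which keeps the nuclear chromosomes of TAIR10; only distances to genes are printed from it. Over 5 chromosomes DAP density fell from 226 per Mb in the last 500 bp inside protein-coding genes to 135 per Mb in the first 500 bp outside, a step at the annotated ends. The table has no strand, so the planned distance upstream of gene starts was replaced by distance to either end.

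Midpoints within 200 bp were partners. Each midpoint was classed as in a protein-coding gene, within 1 kb of one, in another gene, or elsewhere, in that order. Shares have exact Clopper-Pearson 95% intervals, and ratios of ampDAP to DAP intervals derive from that of the ampDAP share, treating the lists as independent. Ratios of ratios and of shares have log-scale intervals. Counting was tested on simulated data. Python 3.11.15, NumPy 2.4.6, SciPy 1.17.1 and Matplotlib 3.10.9 were used. The members, gene list and rules were chosen with earlier results of these data known. Genes named are the nearest gene of each unpartnered site, those in the 5 windows with most ampDAP intervals, the 5 with most DAP intervals within 3 kb, and the list of 22. Motifs, GC content and CG sites were not analysed here.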

Additional observations from a re-analysis of the deposited data

How the results depend on the processing

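In all, 54 values were recomputed: 41 fell inside the reported 95% interval and 13 fell outside it. Only the multiples of the short arm over the long arm have a direction to change, and 0 of those recomputed did. With partners required within 20 bp, the unpartnered share was 25.5% on the short arm and 12.9% on the long arm, a multiple of 1.97, and the share of DAP intervals with a partner was 21.1% and 16.6%. With the short arm ended at 3.0 Mb its unpartnered share was 7.86% and the multiple 3.65. Without the proximal gene-poor block, an alternative chosen after seeing the data, it was 5.88% and the multiple over the long arm 2.73. Within 500 bp of protein-coding genes or inside them lay 90.7% of DAP and 86.9% of ampDAP intervals of the long arm; within 3000 bp these were 99.1% and 99.2%, and 84.2% of DAP intervals on the short arm. The ratio of ratios between the arms ranged no further than its interval with the arm boundaries tried, and the gene-poor and gene-rich values likewise with other gene limits and window sizes. No paired analysis was possible because DAP and ampDAP were represented by 1 library apiece, which also meant that none could be left out. The alternative on motif windows was not run, since no genome sequence was used here. The depth and cutoff behind the lists are unknown and limit every comparison between them, and a site missing from a list is not shown to be unbound.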

Other observations

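The 2.6 Mb between the regions compared, from 3.9 to 6.5 Mb, held 273 DAP and 71 ampDAP intervals, a ratio of 0.260 (0.197 to 0.339). Of these ampDAP intervals 16 were unpartnered (22.5%, 13.5 to 34.0%), a value between those of the interstitial and the proximal gene-poor blocks of the short arm.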
